A study of Mus musculus with 17 samples.

Results

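The cortex of 3-week-old male mice carrying the P209L substitution of hnRNPH2 was compared with that of wild-type littermates. The samples were chosen by their labels, as the 3 mice titled P209L and the 2 titled P209L Control, which make 5 of the 17 cortical RNA samples of the series. P209L mice were hemizygous for the Hnrnph2 P209L allele, controls were wild type, and all 5 were C57BL/6J males sampled at 3 weeks with no treatment named. The other 12 samples were 8-week C57BL/6J males, with 3 hemizygous Hnrnph2 R206W mice, 3 hemizygous Hnrnph2 KO mice and 3 wild-type controls for each of these lines. The knockin alleles were made by homologous editing of the mouse gene with a guide RNA and a single-stranded donor oligonucleotide. The line that the study calls KO, on the C57BL/6J background that the labels give, carries an indel that shifts the reading frame. Because the P209L line was sampled at 3 weeks and the others at 8 weeks, line and age cannot be told apart whenever P209L is set beside them. The sources used here do not give the litters behind each group, so p-values measure the spread between mice within the groups of the series and nothing wider. This spread was shared over all 6 groups, with 11 residual degrees of freedom against 3 in the P209L line alone.

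hnRNPH2 belongs to the hnRNP H/F family of nuclear RNA-binding proteins, which bind runs of guanines and act in splicing and other steps of mRNA processing. Its nuclear localization signal is of the proline-tyrosine type recognized by the import receptor Kapβ2 (transportin 1). Hnrnph2 is X-linked, so a hemizygous male expresses only the mutant protein, and its autosomal paralog Hnrnph1 encodes a close relative. Cortex at 3 weeks is at the end of weaning age, when oligodendrocytes are still adding myelin and synapses are still maturing.

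The stretch around the substituted residue is shown because it is the only difference of design between the groups. Codons 200 to 218 of the reference coding sequence lie in the single coding exon of Hnrnph2 (chrX:134605505-134605561, plus strand, GRCm38), with the codon of the P209L residue at positions 134605532 to 134605534. The same codons of 2 paralogs are given for comparison, and capitals mark in each the codons of the residues replaced in R206W mice, an arginine, and in P209L mice, a proline.
Hnrnph2: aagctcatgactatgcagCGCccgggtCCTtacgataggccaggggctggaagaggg
Hnrnph1: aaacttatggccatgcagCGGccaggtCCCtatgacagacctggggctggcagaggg
Hnrnpf: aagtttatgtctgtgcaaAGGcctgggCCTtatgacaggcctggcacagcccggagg
Over these 57 bases Hnrnph1 differed from Hnrnph2 at 12 positions and Hnrnpf at 20. All 3 genes encode an arginine and a proline at these places, and in P209L mice the proline codon of Hnrnph2 alone is replaced by a leucine codon, which is not in the files used here. A TPM value (the share of a gene's transcripts among all transcripts of a sample, corrected for transcript length) cannot tell the 2 alleles apart.

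The label of cortex fitted the marker genes in all 5 mice. The excitatory neuron genes Slc17a7 and Neurod6 lay between 511 and 691 TPM and between 34 and 66.8 TPM, the synaptic gene Snap25 between 1286 and 1576 TPM, and Ddx3y on the Y chromosome between 18.6 and 27 TPM with Xist at 0.02 TPM or below. The log2 values of any pair of these mice correlated across genes with r between 0.972 and 0.984, and transcripts named as mitochondrial took 12.5% to 14.1% of TPM. P209L control 2 stood apart in one respect. It held 1740 TPM of Ttr, the transthyretin transcript that marks choroid plexus, against 0.67 to 23.2 TPM in the other 16 samples of the series, and its other choroid plexus markers summed to 57.9 TPM against 3.24 to 6.79 TPM in the rest of the line. Sums of myelin, meningeal, endothelial and blood markers were also higher in this mouse than in P209L control 1, so results that touch these tissues are given with and without it. The depth behind each sample is unknown from TPM, and precision was judged from the spread between mice.

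Of 16265 genes with a mean of at least 1 TPM, 16 passed a limma test on log2(TPM + 1) at a Benjamini-Hochberg adjusted p under 0.05, or 0.0984% of the genes tested, and 13 were higher (0.0799%) and 3 lower (0.0184%) in P209L mice. This balance depended on scaling, with 37 higher and 29 lower under median-of-ratios size factors and 31 higher and 27 lower under quantile normalization. The groups did not overlap for any of the 16, against 24.9% of all genes. By a looser rule, an unadjusted p under 0.05 with a log2 change beyond 0.5 in size, 434 genes differed (2.67%), 194 higher (1.19%) and 240 lower (1.48%). No correction for the number of genes enters that rule. At an unadjusted p under 0.05 alone there were 1213 genes (7.46%). The median log2 change over all tested genes was 0.016. The count of 16 was sensitive to a single mouse outside the line and to a single control within it. It was 68 without KO control 1, 26 without P209L control 1, of which 11 were higher, and 8 without P209L control 2, of which 7 were higher. When the P209L line was fitted alone, with 3 residual degrees of freedom, 6 genes passed and 2 of them, Ddn and Ppp1r9b, were among the 16.

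**Figure D1:**
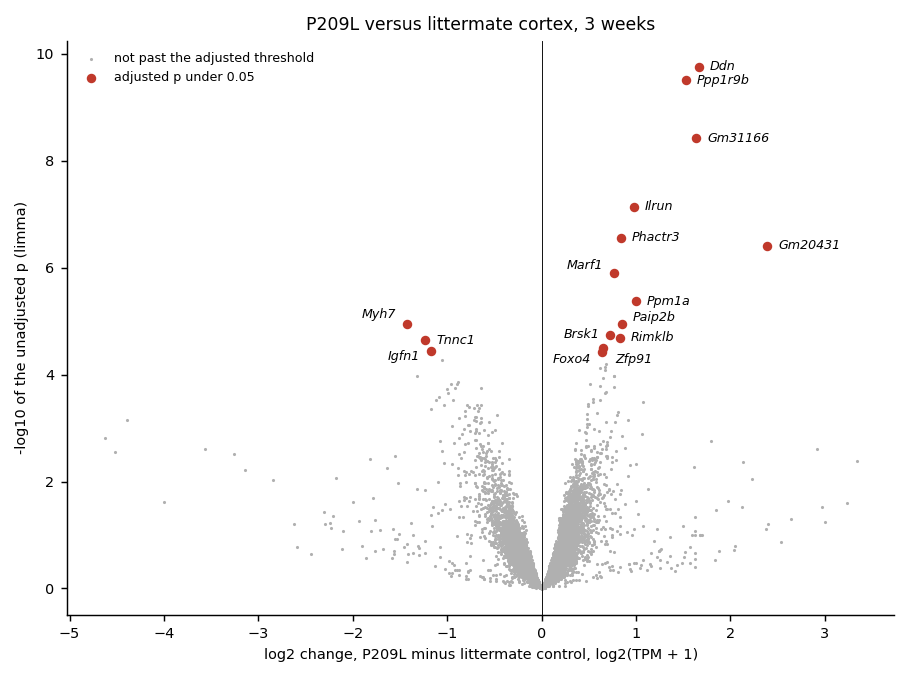
Log2 change of each tested gene between P209L and littermate cortex (x axis, log2(TPM + 1) scale) against the negative log10 of its unadjusted limma p (y axis), with genes past the adjusted threshold in red and named. The 13 higher and 3 lower genes sit at the top of each arm, with Ddn, Ppp1r9b and Gm31166 above the rest.

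The targeted gene was examined first. Hnrnph2 (ENSMUSG00000045427.13, chromosome X, 134601179 to 134607060) was at 91.4 and 81.6 TPM in the controls and at 84.5, 90.3 and 103 TPM in P209L mice. The groups overlapped, with a log2 change of 0.09 (SE 0.190) and a limma adjusted p = 0.978, and the sign turned to -0.02 once a trend of transcript length and GC content was removed. Means of Hnrnph2 were 92.5 ± 9.30 TPM in mutants (SD, n = 3) and 86.5 ± 6.97 TPM in controls (SD, n = 2). Among its relatives, Hnrnph1 was at 273 and 284 TPM in the controls and at 401, 305 and 313 TPM in P209L mice. All 3 mutants were above both controls, a pattern shared by 14.2% of all genes, and the log2 change was 0.28 with SE 0.143 and adjusted p = 0.726. Hnrnpf, Hnrnph3 and the mitochondrial RNA-binding member Grsf1 had log2 changes of 0.21, -0.12 and -0.01, and 0 of the 5 family members passed either rule.

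The 2 increases with the smallest adjusted p were in genes of the dendritic spine. Ddn (ENSMUSG00000059213.7, chromosome 15, 98803777 to 98809490, minus strand) encodes dendrin, a postsynaptic protein whose mRNA is carried into dendrites. It was at 326 and 356 TPM in the controls and at 1001, 1234 and 1036 TPM in P209L mice. The lowest mutant was far above the higher control, and the mean rose 3.20-fold, with a log2 change of 1.67 (SE 0.114), adjusted p = 2.49e-06. Ppp1r9b (ENSMUSG00000038976.12, chromosome 11, 94991035 to 95006899, plus strand) encodes spinophilin, a scaffold that brings protein phosphatase 1 to dendritic spines and binds actin. Its values were 204 and 233 TPM in the controls and 580, 647 and 663 TPM in the mutants, a log2 change of 1.53 (SE 0.108), adjusted p = 2.49e-06. Ddn and Ppp1r9b passed under each of the 32 alternatives tried, the only called genes to do so. Both were also above the range of the 6 controls aged 8 weeks in every P209L mouse, 484 to 527 TPM for Ddn and 339 to 389 TPM for Ppp1r9b, whereas their littermates were below it.

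Phactr3 and Ppm1a, which act in protein phosphatase regulation, were among the calls. Phactr3 (ENSMUSG00000027525.17, chromosome 2, 178118975 to 178338492) encodes a regulator that binds protein phosphatase 1 and actin. It was at 72.4 TPM in each control and at 119, 142 and 131 TPM in P209L mice, with a log2 change of 0.84 (SE 0.0975), adjusted p = 0.000898. Ppm1a (ENSMUSG00000021096.11, chromosome 12, 72757455 to 72799819), a metal-dependent phosphatase of the PP2C family, was at 134 and 121 TPM against 226, 240 and 308 TPM. Its log2 change of 1.00 (SE 0.145) came with adjusted p = 0.00838, and the gene did not pass without P209L control 2. Ppp1cb, the beta catalytic subunit of protein phosphatase 1, was at 134 and 113 TPM against 203, 204 and 225 TPM, with a log2 change of 0.77, adjusted p = 0.0717, so it did not pass. The list of 20 protein phosphatase 1 subunits and partners was not shifted as a whole. Of its members 9 were higher and 11 lower, with a median of -0.01 beside 0.016 for all genes, and 2 passed the adjusted test, Ppp1r9b and Phactr3. Paralogs named after their values were seen did not pass either rule, with Ppp1r9a, which encodes neurabin, at a log2 change of 0.23, Phactr1 at -0.20 and Ppp1ca at -0.01.

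**Figure D2:**
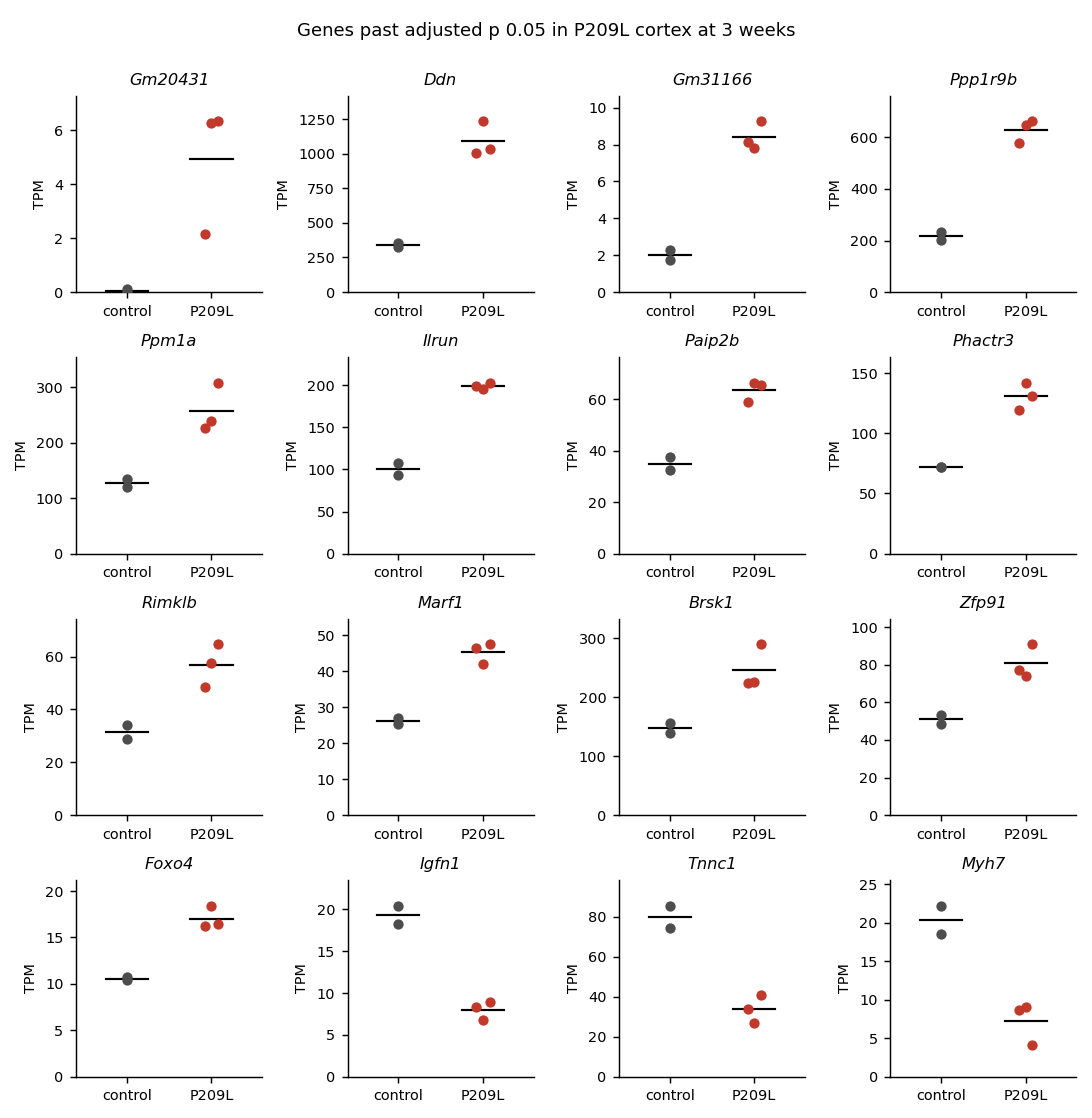
TPM of the 16 genes past the adjusted threshold in each mouse (y axes from 0), with 2 control mice in gray, 3 P209L mice in red and the mean of each group as a bar. The 3 P209L mice lie on one side of both controls in every panel, above them for 13 genes and below for Igfn1, Tnnc1 and Myh7.

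The other increases fell on genes of varied function. Ilrun (ENSMUSG00000056692.13, chromosome 17, 27751235 to 27820648), an inhibitor of innate immune transcription, was at 93.9 and 108 TPM in the controls and at 199, 196 and 203 TPM in P209L mice. The mutants lay within a few TPM of each other, and on the log2 scale they differed from the controls by 0.98 (SE 0.103), adjusted p = 0.000293. Brsk1 (ENSMUSG00000035390.16, chromosome 7, 4690604 to 4715997), a kinase of neuronal polarity, was at 139 and 157 TPM against 225, 226 and 290 TPM, a log2 change of 0.73, adjusted p = 0.026. It lost the call when either control was left out. Its close paralog Brsk2, named after its value was seen, was at a log2 change of 0.10, and 1 of 10 polarity kinases passed in all. Rimklb (ENSMUSG00000040649.15, chromosome 6, 122447296 to 122498761), a ligase that makes N-acetylaspartylglutamate and beta-citrylglutamate, was at 28.9 and 34 TPM against 48.3, 57.6 and 64.6 TPM, with a log2 change of 0.83, adjusted p = 0.0278.

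RNA and protein turnover genes were also among the calls. Marf1 (ENSMUSG00000060657.8, chromosome 16, 14109173 to 14163351), an RNA-binding endonuclease first described in oocytes, was at 25.3 and 27 TPM in the controls and at 46.4, 42 and 47.5 TPM in P209L mice, a log2 change of 0.77 (SE 0.101), adjusted p = 0.00286. Paip2b, a translational repressor that binds the poly(A)-binding protein, was at 37.5 and 32.4 TPM against 58.9, 66.4 and 65.6 TPM, with a log2 change of 0.85, adjusted p = 0.0188. Zfp91, an E3 ubiquitin ligase, and Foxo4, a forkhead transcription factor encoded on the X chromosome like Hnrnph2, rose by 0.65 and 0.64, each with an adjusted p just inside the threshold, 0.0375 and 0.0377. Zfp91 passed in 17 and Foxo4 in 15 of the 32 alternatives. Zfp91, Foxo4 and Rimklb lost the call when either control was left out, and Paip2b without control 2. Msi2 was at a log2 change of 0.68, adjusted p = 0.0564, and Pum2 at 0.51 with 0.0844. Both encode RNA-binding proteins that control translation, and neither passed.

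Genes known only by a gene-model name, Gm31166 and Gm20431, made up the last of the increases. Gm31166 (ENSMUSG00000109695.1, chromosome 19, 5512528 to 5550368, plus strand), annotated as a transcribed processed pseudogene, was at 1.75 and 2.28 TPM in the controls and at 8.14, 7.81 and 9.27 TPM in the mutants. It rose by 1.64 on the log2 scale (SE 0.140), adjusted p = 2.06e-05. A pseudogene can share reads with its parent gene, so the split of reads behind this level is uncertain. Gm20431 (ENSMUSG00000089739.2, chromosome 2, 167607850 to 167661496, minus strand) is annotated as protein-coding. It overlaps Ube2v1 and Tmem189, so its reads cannot be assigned with certainty. It was listed at 0 and 0.10 TPM in the controls and at 2.14, 6.28 and 6.33 TPM in P209L mice, and at 8.12 to 15.4 TPM in the 8-week controls. On the log2 scale the difference was 2.39 (SE 0.286), adjusted p = 0.00106, and it ranged from 2.19 to 5.0 over the alternatives because the value depends on the pseudocount. Ube2v1 and Tmem189 themselves lay between 73.5 and 102 TPM and between 34.2 and 43.6 TPM in the 5 mice.

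All 3 genes called lower were sarcomere genes, which are best known from striated muscle. Myh7 (ENSMUSG00000053093.16, chromosome 14, 54970684 to 54994626), the slow beta-myosin heavy chain, was at 18.6 and 22.2 TPM in the controls and at 8.66, 9.03 and 4.15 TPM in P209L mice. It fell by 1.43 on the log2 scale (SE 0.225, adjusted p = 0.0188). Tnnc1 (ENSMUSG00000091898.8, chromosome 14, 31208312 to 31211729), the troponin C of slow and cardiac muscle, was at 85.5 and 74.6 TPM against 34.1, 26.9 and 40.8 TPM, and fell by 1.23, adjusted p = 0.0288. Igfn1 (ENSMUSG00000051985.12, chromosome 1, 135953578 to 136006342), which encodes a sarcomere-associated protein with immunoglobulin-like domains, was at 18.2 and 20.4 TPM against 8.33, 6.78 and 8.95 TPM, and fell by 1.17, adjusted p = 0.0377. Each of these calls was lost when either control was left out, with log2 changes between -1.55 and -1.10, so all 3 rest on both controls. For Tnnc1 the P209L values were near those of the 8-week controls, 19.1 to 35.1 TPM, and the 3-week controls were above them.

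The rest of the contractile list was mixed. Of 30 sarcomere genes 14 were tested, and 8 were lower and 6 higher, near the 46.2% of all genes that were lower. The median log2 change was -0.28, and 5 were lower by the looser rule, against 1.48% of all genes. The 2 besides the calls were Tnni1, the slow troponin I, with a log2 change of -1.0, adjusted p = 0.0885, and Tnnt1, the slow troponin T, with -0.51 and 0.374. Fast-muscle members were not lower in step, with Myl1 at 0.20 and Mylpf at 0.31, both named after their values were seen. The 16 other members had a mean below 1 TPM and were not tested, and the sum of the list was 248 and 246 TPM in the controls against 142, 130 and 211 TPM in P209L mice.

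A list of 10 genes was taken from the study, which chose them on these samples, and all were higher in P209L cortex. They are the calls Ddn, Ppp1r9b, Ilrun, Rimklb and Phactr3 together with Tnpo2, Shank1, Ash1l, Ppfia3 and Ctnna2, and their direction is therefore no independent evidence. Of the 10, 5 passed the adjusted test over all genes and 10 met the looser rule, which 1.19% of all genes met in that direction, with a median log2 change of 0.82. Ash1l, a histone H3 lysine 36 methyltransferase, was at 12.4 and 14.1 TPM in the controls and at 20.8, 21.9 and 30.5 TPM in P209L mice, with a log2 change of 0.81, adjusted p = 0.144. Shank1, a scaffold of the postsynaptic density, was at 83.3 and 104 TPM against 150, 139 and 166 TPM, with 0.69 and 0.277. Tnpo2, a nuclear import receptor and paralog of Kapβ2, was at 48.7 and 51.2 TPM against 70.9, 80.5 and 105 TPM, with 0.75 and 0.322. Ppfia3, which encodes liprin-alpha-3 of the presynaptic active zone, and Ctnna2, the neuronal alpha-catenin, were at 0.62 and 0.67, adjusted p = 0.088 and 0.0983. These 5 genes did not pass, although their groups did not overlap.

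Synaptic genes otherwise stayed close to the median of all genes. Among 19 postsynaptic scaffolds the median was 0.04, and Ddn and Shank1 were the 2 that met the looser rule. The paralogs Shank2 and Shank3 were at 0.07 and 0.17 and Dlg4, which encodes PSD-95, was at -0.04, all 3 named after their values were seen. The 26 presynaptic genes had a median of -0.08 with 1 higher by the looser rule, Ppfia3, and the 13 AMPA and NMDA receptor subunits a median of -0.06 with 0 by either rule. Of 12 GABA-A receptor subunits 11 were higher, against 53.5% of all genes, with a median of 0.17. Without control 2 they were 6 higher and 6 lower, with a median of 0.05 and 0 by the looser rule. Gabra3 was at 77.6 and 60 TPM in the controls and at 105, 99.5 and 90.6 TPM in the mutants, and Gabra5 at 40.9 and 26.3 TPM against 52.3, 65.3 and 43.7 TPM. These 2 met the looser rule in the fit of all mice, against 1.19% of all genes, with log2 changes of 0.52 and 0.68, adjusted p = 0.296 and 0.418. In each, control 2 was the lowest mouse, and without it the log2 changes were 0.34 and 0.37.

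Neuronal identity genes gave few differences. The 16 cortical layer genes had a median of -0.03, with Fezf2, a transcription factor of deep-layer projection neurons, at 0.55, adjusted p = 0.493. Among 15 interneuron genes the median was -0.01, and 2 neuropeptide genes were higher by the looser rule, against 1.19% of all genes. Tac1, the precursor of substance P, was at 23.8 and 18.6 TPM in the controls and at 38, 29.9 and 45.6 TPM in P209L mice, with a log2 change of 0.80, adjusted p = 0.155. Cort, which encodes cortistatin, was at 30.5 and 32 TPM against 53.7, 40.2 and 85 TPM, with 0.85 and 0.229. The littermates were also above the 8-week controls for both neuropeptide genes, whose upper values there were 17.9 and 19.5 TPM. Immature neuron genes (median 0.10), channel genes (0.06) and neurofilament and microtubule genes (-0.04) held 0, 1 and 0 members by the looser rule, and the one was Scn4b, a sodium channel beta subunit, at -0.79, adjusted p = 0.59. The 15 rapid immediate-early genes gave no stable direction, with a median of 0.07 that became 0.53 without control 1 and -0.49 without control 2.

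**Figure D3:**
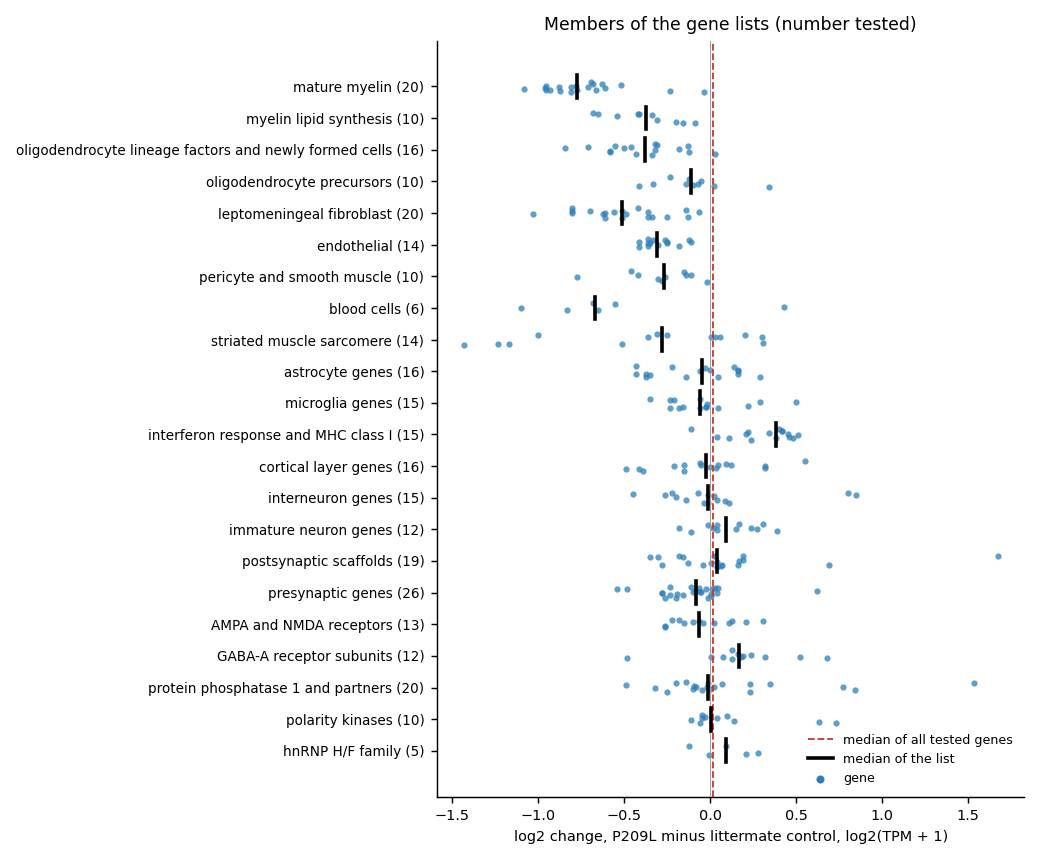
Log2 change in P209L cortex (x axis) of each tested member of 22 gene lists (rows, number tested in parentheses), with the median of a list as a black bar and the median of all tested genes, 0.016, as a dashed line. Members of the mature myelin list lie left of 0 throughout, with a median of -0.77, while the neuronal lists center near the dashed line with single genes such as Ddn far to the right.

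Myelin transcripts were lower in P209L cortex. In bulk tissue fewer cells of a type and less RNA per cell cannot be told apart. All 20 genes of the mature myelin list were lower in P209L mice, as were 46.2% of all genes, 18 met the looser rule, which 1.48% of all genes met in that direction, and 18 had all 3 mutants below both controls, against 10.7% of all genes. The median log2 change was -0.77, and 0 of the 20 passed the adjusted test. Opalin, an oligodendrocyte membrane glycoprotein, was at 24.3 and 27.7 TPM in the controls and at 13.9, 14.7 and 10.4 TPM in P209L mice, with a log2 change of -0.96, adjusted p = 0.0844. Mog, the myelin oligodendrocyte glycoprotein, was at 86.5 and 110 TPM against 60.3, 59.5 and 47.2 TPM, with -0.81 and 0.141. Mag, the myelin-associated glycoprotein, was at 82.5 and 136 TPM against 51.8, 57.5 and 41.1 TPM, with a log2 change of -1.08, adjusted p = 0.263. For Mbp, the myelin basic protein, the mutants were again below both controls, at 1403, 1818 and 1265 TPM against 1950 and 2997 TPM.

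The size of this difference depended on P209L control 2, the mouse with choroid plexus transcripts. The summed TPM of the list was 4703 and 7001 in the controls and 3476, 4034 and 2896 in P209L mice, so that every mutant was below the lower control. Without control 2 the median was -0.52, with 19 of 20 genes still lower and 5 lower by the looser rule. The remaining gene, Hapln2, named after its values were seen, went from -0.04 to 0.54 and then met the looser rule as higher. Without control 1 the median was -1.04. The sum in the 6 controls aged 8 weeks was 3231 to 4445, which spans the values of 2 of the 3 mutants. Both 3-week controls, at 4703 and 7001, were above that range. What sets the level of these controls was not tested. The choroid plexus list itself, with 4 of 10 genes tested, had a median of -1.45 that was -0.01 without control 2.

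Related lists of the oligodendrocyte lineage had smaller medians. Over all genes 46.2% were lower, and 1.48% were lower by the looser rule. Oligodendrocyte lineage factors and genes of newly formed cells had a median of -0.38, with 15 of 16 lower and 4 by the looser rule. These 4 were Nkx6-2 (-0.84), Bcas1 (-0.71), Olig1 (-0.58) and Myrf (-0.58), a transcription factor that drives myelin genes. Myelin lipid genes had a median of -0.37, with 10 of 10 lower and 3 by the looser rule, Fa2h, Elovl1 and Cyp2j12. Oligodendrocyte precursor genes had a median of -0.11, with 8 of 10 lower and 0 by the looser rule, and cholesterol synthesis genes also had a median of -0.11, with 0 of 22. Without control 2 the medians of these 4 lists were -0.16, -0.25, -0.10 and -0.11. Without that mouse the looser rule was met by 1 lineage gene, with 13 of 16 lower, and by 0 myelin lipid genes, with 9 of 10 lower. No test of the order of the lists was made.

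Vascular and meningeal transcripts were also lower, and these too were highest in control 2. All 20 leptomeningeal fibroblast genes were lower, against 46.2% of all genes, and 7 met the looser rule, against 1.48%, with a median of -0.51. Without control 2 all 20 were still lower, with a median of -0.39, but 2 met the looser rule. Among them Igf2 was at 39.1 and 54.5 TPM in the controls and at 20.2, 24.9 and 21.2 TPM in P209L mice, with a log2 change of -1.03, adjusted p = 0.123. Islr was at 7.17 and 7.35 TPM against 3.82, 3.74 and 3.67 TPM, with a log2 change of -0.80 that remained at -0.78 without control 2, adjusted p = 0.38. Ptgds, the prostaglandin D synthase made by leptomeninges and oligodendrocytes, was at 672 and 792 TPM against 314, 347 and 368 TPM, a log2 change of -1.09, adjusted p = 0.11. The 14 endothelial genes were all lower (median -0.31, or -0.14 without control 2) with 0 by the looser rule, and the 10 pericyte and smooth muscle genes were all lower (-0.27, or -0.12) with 1, Vtn. Of 6 blood cell genes 5 were lower, with a median of -0.67 that was -0.12 without control 2, and the globin genes Hba-a1 and Hba-a2 have near-identical copies, so reads may be split between them. Without control 2, 13 of 14 endothelial, 9 of 10 pericyte and smooth muscle and 5 of 6 blood cell genes were lower, with 0 in each list by the looser rule.

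**Figure D4:**
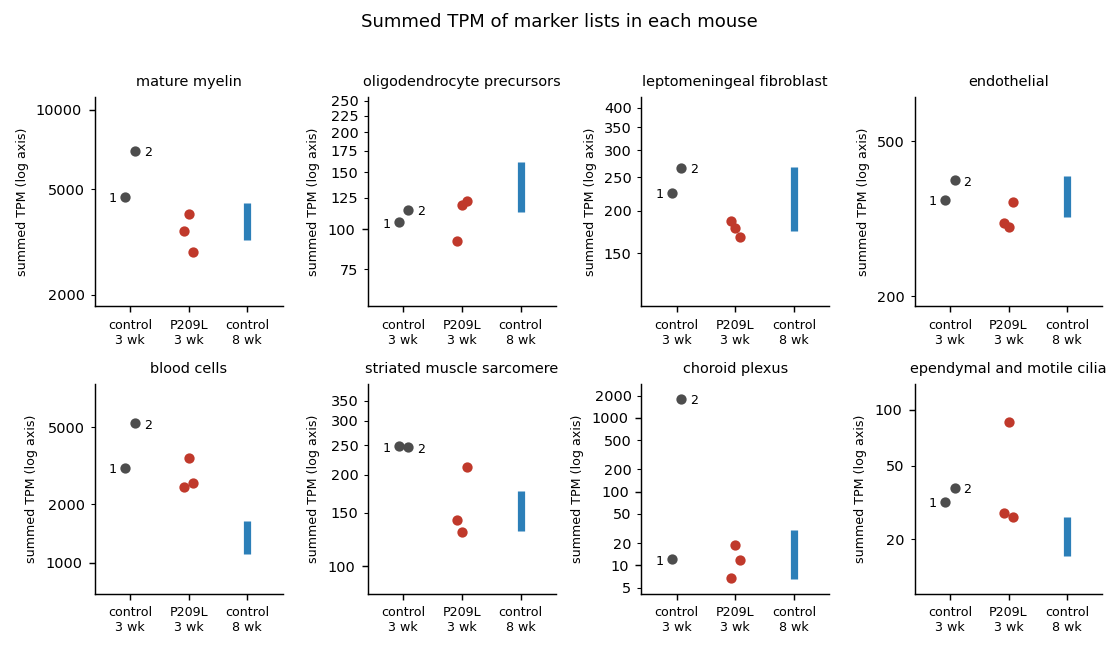
Summed TPM of 8 marker lists in each mouse (log axes), with the 2 controls of the line in gray and numbered, the 3 P209L mice in red and the range of the 6 controls aged 8 weeks in blue. Choroid plexus transcripts stand out in control 2 at 1798 TPM, and mature myelin and leptomeningeal sums are lower in every P209L mouse than in either control.

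Astrocyte and microglia genes were near the median of all genes, at -0.04 for 16 and -0.06 for 15, with 0 in either direction by the looser rule. Neither median kept its sign. Without control 1 they were -0.25 and -0.23, and without control 2 they were 0.08 and 0.09. Of 15 interferon-response and MHC class I genes 14 were higher, with a median of 0.38 that was 0.20 without control 2, and 0 met the looser rule. B2m, the light chain of MHC class I, was at 193 and 208 TPM in the controls and at 248, 263 and 294 TPM in P209L mice, with a log2 change of 0.42, adjusted p = 0.296. Cytosolic ribosomal protein genes were slightly higher, with 74 of 80 above 0 against 53.5% of all genes, a median of 0.17 and 0 by the looser rule. In the same way 63 of 79 nuclear genes of the respiratory chain were above 0, with a median of 0.12 that was 0.02 without control 2. Among clock genes Dbp, a circadian transcription factor, was at 79.6 and 103 TPM against 58.3, 51.6 and 61.4 TPM, with a log2 change of -0.66, adjusted p = 0.128, and the list of 16 had a median of 0.04.

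Markers of neighboring brain regions were examined next. Striatal genes had a median of 0.11, cerebellar genes of -0.07 and dentate gyrus genes of 0.01, with 0 of 18 tested genes by the looser rule. Ependymal and motile cilia genes summed to 86 TPM in P209L 2 and to 26.4 to 37.8 TPM in the other 4 mice. Stress-related lists were close to the median too, at 0.09 for glucocorticoid-responsive genes and 0.08 for heat shock and ER chaperones. The mitochondrial gene mt-Co3 was at 119 and 96.7 TPM in the controls and at 2.19, 2.96 and 7.42 TPM in P209L mice, with a log2 change of -4.52, adjusted p = 0.302. Its level ran from 0 to 190 TPM within the 8-week controls, and nuclear copies of mitochondrial sequence can take its reads, so it is reported as uncertain. The remaining lists had medians between -0.11 and 0.23 and at most 3 members by the looser rule. That number was reached among 14 collagen genes, where Col8a1, Col9a3 and Col15a1 were lower, against 1.48% of all genes. Of the 14, 9 were lower in the fit of all mice, against 46.2% of all genes. Without control 2 the collagen median went from -0.11 to -0.04, with 8 lower and 6 higher. The 3 differences are therefore given only for the fit of all mice.

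The genes higher and lower by the looser rule differed in base composition. The 194 higher genes had a median GC content of 47.7%, the 240 lower genes of 54%, and all tested genes of 50%. Processed pseudogenes made up 45 of the 194, or 23.2%, against 6.12% of all tested genes. With genes split into 10 equal bins of GC content, the median log2 change in P209L cortex went from 0.13 in the lowest bin to -0.08 in the highest. It ran the opposite way in both 8-week lines, from -0.08 to 0.06 in R206W cortex and from -0.06 to 0.14 in KO cortex. When this trend was removed together with that of transcript length, all 16 calls passed and 105 genes passed in all, 59 higher and 46 lower. The 13 genes called higher had a median transcript length of 3982 bases against 2840 in all genes. Their runs of 3 guanines (GGG on the transcript strand) had a median of 17.2 per kb against 12.2 in all genes and ranged from 8.0 to 26.4. The 3 genes called lower had a median of 12.4 per kb. By the looser rule the order was the other way, with a median of 10.5 per kb in the 194 higher genes and 14.8 in the 240 lower genes. These are descriptions of annotated transcripts, not of binding.

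The P209L changes were set beside those of the other lines, each against its own littermates. Of the 16 calls 15 had the same sign in R206W cortex, and the exception was Tnnc1 at 0.12. In R206W cortex 52.9% of all genes were above 0, and the share of all genes with the same sign in both lines was not counted. Of the 16, 12 had an unadjusted p under 0.05 there, which 2.19% of all genes had, and 5 passed its adjusted test, which 0.0369% passed. Those 5 were Ddn, Ppp1r9b, Gm31166, Ilrun and Phactr3. All 16 were smaller in size in R206W, but they were selected on their size in P209L, so this comparison favors P209L by construction. Ddn, at 1.67 in P209L, was at 0.92 (SE 0.102) in R206W, where its mean was 981 TPM against 518 TPM in controls, and Ppp1r9b, at 1.53, was at 1.08 (SE 0.097). Gm31166 was nearly the same in both, at 1.64 and 1.62. The difference between the P209L and R206W effects was tested directly, and 0 of 16265 genes passed in limma at an adjusted p under 0.05, while 647 had an unadjusted p under 0.05 (3.98%) and 383 met the looser rule (2.35%). Of the 16 calls 10 had an unadjusted p under 0.05 for this difference, with Ddn at a difference of 0.75 (SE 0.153, adjusted p = 0.744). The myelin list, at a median of -0.77 in P209L, was at -0.11 in R206W and 0.19 in KO cortex. Its difference between P209L and R206W passed for 0 genes after adjustment. In limma 12 of its 20 genes had an unadjusted p under 0.05 for that difference, against 3.98% of all genes. For the difference between P209L and KO 18 of the 20 did, against 7.98%, and 0 passed after adjustment.

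Against the KO line the differences were larger. Of the 16 calls 0 passed in KO cortex, where 0.00615% of all genes did, and 1, Igfn1, had an unadjusted p under 0.05 there (4.08% of all genes), with a log2 change of 0.40. The P209L effect exceeded the KO effect for 8 genes at an adjusted p under 0.05 (0.0492% of all genes) and was below it for 0, with 20 and 6 under median-of-ratios size factors and 14 and 4 under quantile normalization. At an unadjusted p under 0.05 there were 1298 genes (7.98%), and 941 met the looser rule (5.79%). Of these 8, 7 were P209L calls, led by Ddn with a difference of 1.69 (SE 0.153, adjusted p = 0.000131) and Ppp1r9b with 1.55 (adjusted p = 0.000131). The remaining gene was Hnrnph2 itself, which was at -2.30 in KO cortex and 0.09 in P209L cortex. This contrast was also sensitive to KO control 1. Without that mouse 22 genes passed the adjusted test, 21 with a higher and 1 with a lower P209L effect. By the looser rule the balance went from 336 higher and 605 lower to 669 higher and 396 lower. The controls of the lines differ in age, so differences from the KO line compare alleles and ages together.

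**Figure D5:**
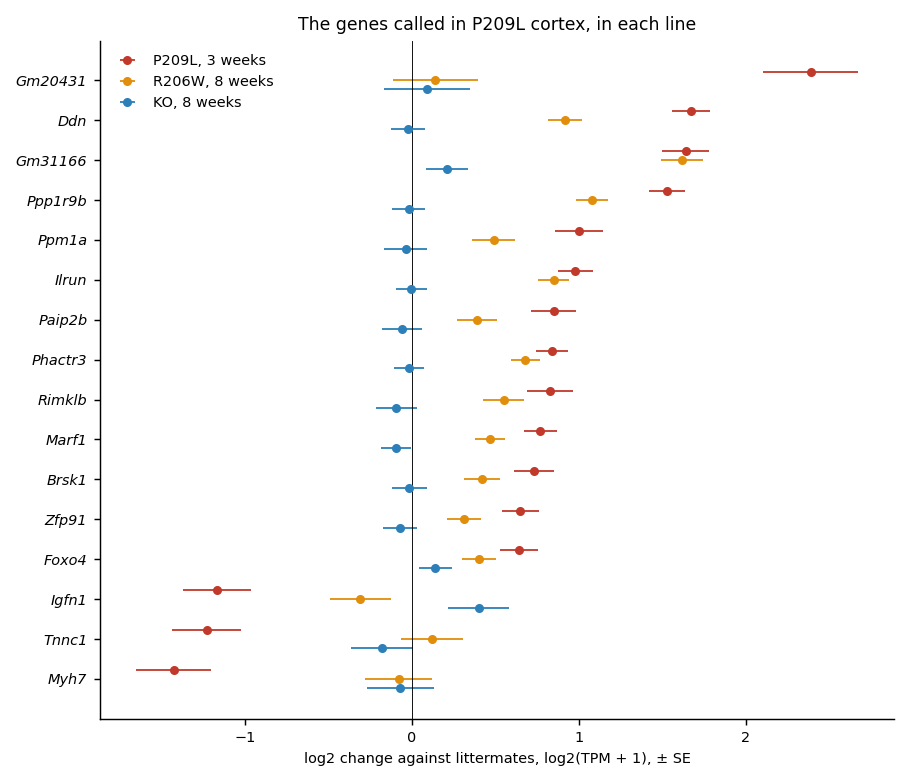
Log2 change with its SE (x axis, log2(TPM + 1) scale) of the 16 genes called in P209L cortex, in the P209L (red), R206W (orange) and KO (blue) lines, each against its own littermates. Ddn is at 1.67, 0.92 and -0.02 in the 3 lines, and the 3 sarcomere genes lie below -1 in P209L and between -0.31 and 0.40 in the other lines.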

How the data were processed

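Bulk cortex was kept in RNAlater-ICE, RNA was extracted with RNeasy kits, and TruSeq stranded total RNA libraries were sequenced. The authors deposited one table of TPM values by gene symbol with a column per mouse, and the deposited TPM carry no depth. The submitters' processing notes name Trim Galore, STAR 2.7.1a, GATK 4.0.4.0, RSEM and mm10, with no role or order. The table had 55573 entries, and repeated symbols (120 entries) were summed to 55453, of which 98.5% matched GENCODE M21 (GRCm38), the source of coordinates and transcript sequences. RefSeq synonyms linked Ilrun.

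Genes with a mean of at least 1 TPM over 17 samples were tested on log2(TPM + 1) with limma 3.58.1 (lmFit, contrasts.fit, eBayes with trend=TRUE, R 4.3.3), two-sided, with a mean for each of 6 groups and a shared spread (11 residual degrees of freedom). Benjamini-Hochberg adjustment ran over every gene tested in a contrast. The contrasts were P209L against control, and that effect minus the R206W or the KO effect. On simulated data for the first contrast (16265 genes), 86.5% of log2 changes of 1 and 92.8% of 1.5 were called, with 9 false calls. There 89 genes changed by 1 and 111 by 1.5, all with a mean of at least 5 TPM. Noise was drawn separately for each gene and mouse, with no shift of a whole mouse. These rates therefore need not hold for the real data. Gene lists (43) are given by counts and medians only. The members and lists were chosen with earlier results of these data known. Named genes were all calls, up to 10 further genes in each direction with the smallest p that met the looser rule without overlap (leaving out Gm, Rik and -ps models), the hnRNP H/F family, the study's 10 genes, and list members that met the looser rule or else the 2 with the smallest p. Alternatives changed the pseudocount, filter, scaling, eBayes, weights, block, samples fitted and length and GC trend, and left out each mouse. Values of a withheld item are not reported here.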

Additional observations from a re-analysis of the deposited data

Results flagged for a closer look

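The P209L effect and the KO effect differed for 8 genes by the limma test of the difference itself, at a Benjamini-Hochberg adjusted p under 0.05, and in each the P209L effect was higher. On the log2 scale the differences were 2.40 for Hnrnph2 (adjusted p = 0.000465), 2.30 for Gm20431 (0.0435), 1.69 for Ddn (0.000131), 1.55 for Ppp1r9b (0.000131), 1.43 for Gm31166 (0.00495), 0.98 for Ilrun (0.00941), 0.86 for Phactr3 (0.0215) and 0.86 for Marf1 (0.0233). Age cannot be told apart from the line in these differences. No group of the P209L line held enough mice for a check of single outlying samples.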

How the results depend on the processing

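Over the alternatives the 16 calls gave 479 values, none of them reversed (0), of which 391 passed and 88 did not. The count of 16 became 52 with no filter, 66 with median-of-ratios size factors (37 higher), 58 with quantile normalization (31 higher), 49 without mitochondrial and the most abundant genes in the total, 72 with sample weights, 105 with the length and GC trend removed (an alternative chosen after seeing the data) and 6 with the P209L line alone, and it ran from 8 to 68 when a mouse was left out. The count of 434 by the looser rule became 656 with a pseudocount of 0.1 and 238 with a mean TPM of at least 5, and ran from 332 to 773. For P209L minus R206W, 0 became 1 with a pseudocount of 0.1 or 0.5, 7 with no filter and 4 with weights, and ran from 0 to 2. Its 383 genes by the looser rule became 199 at a mean TPM of 5 and 593 with weights, and ran from 272 to 717. For P209L minus KO, 8 became 18 with no filter, 26 with size factors, 18 with quantile normalization, 20 without the abundant genes, 344 with weights, 47 with the trend removed and 4 with those lines alone, and ran from 5 to 22. Its 941 by the looser rule became 586 at a mean TPM of 5 and 1433 with weights, and ran from 498 to 1646. Weights lay between 0.0818 (KO control 1) and 4.05 (KO control 2). The cause of these moves was not tested.

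With the replicate number as a block, the counts were 9 and 658 for P209L, 716 by the looser rule for P209L minus R206W, and 4 and 1479 for P209L minus KO, and 7 of the 16 calls remained. The numbers were not shown to pair the mice, since deviations of same-numbered mice correlated with r of 0.0814 and 0.00276.

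Signs turned for small changes or those resting on 1 mouse. Hnrnph2 was at -0.016 with the trend removed and Grsf1 at 0.014 with weights. With a mouse left out, Grsf1 ran from -0.11 to 0.093, Cfap126 from -0.77 to 0.013, Dynlrb2 from -0.13 to 0.86, Kcnj13 from -2.46 to 0.16, Errfi1 from -0.022 to 0.33 and Cox8b from -2.15 to 0.028. Grsf1 turned without control 1 or P209L 1, Dynlrb2 without P209L 2 and the others without control 2. Of 602 list medians over the alternatives, 43 moved by more than the spread between mice. With 2 controls, small changes were not detectable, and depth is unknown from TPM.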
